A study of Mus musculus with 6 samples.

Results

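Cholesterol synthesis in mouse liver was examined through 7 genes, namely the transcription factor gene Srebf2 and 6 enzymes of the pathway, Hmgcs1, Mvd, Fdps, Fdft1, Sqle and Lss. They were listed by name and looked up by symbol, and all 7 were found among the 48432 genes of the table. Livers of 10-week-old mice had been profiled by RNA sequencing of total RNA. The Li-KO group (3 libraries, replicates 0, 1 and 2) was labelled a liver-specific knockout of the gene Klf15, which encodes a zinc finger transcription factor of the Kruppel-like family. The control group, Ctl (3 libraries, replicates 0, 1 and 2), was Albumin-Cre, a transgene in which the albumin promoter drives Cre recombinase in hepatocytes. The labels do not give the floxed allele, the Cre of the Li-KO mice, sex, feeding state or time of day, nor whether each library was a separate mouse, so p-values measure the spread between libraries.

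SREBP2, the product of Srebf2, is made as a precursor in the endoplasmic reticulum membrane. When sterols are low, SCAP carries it to the Golgi, where the site-1 and site-2 proteases release the part that enters the nucleus and activates genes of cholesterol synthesis and uptake, often together with NF-Y and Sp1. Much of this control is on the protein, which RNA counts do not show. The enzymes act in sequence: Hmgcs1 makes HMG-CoA, Mvd makes isopentenyl diphosphate, Fdps makes farnesyl diphosphate, Fdft1 joins farnesyl units to squalene, Sqle oxidises squalene, and Lss closes the rings to lanosterol.

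The promoters are shown because members that share a regulator are compared here. RefSeq promoter sequences (GRCm38.p6) were given for 4 of the 7 members. The 250 bases before the RefSeq start are printed from 5′ to 3′ on the strand of the gene. For Srebf2, Hmgcs1 and Lss this start differs from the gene start given below, which is from the GENCODE annotation. The printed windows of Srebf2 and Lss therefore end inside the gene as GENCODE places it. Capitals mark the NF-Y box, CCAAT on either strand (ATTGG when on the other strand), and the letters TCACCCCA, part of sterol elements.
Srebf2 (chr15:82147019-82147268, plus strand): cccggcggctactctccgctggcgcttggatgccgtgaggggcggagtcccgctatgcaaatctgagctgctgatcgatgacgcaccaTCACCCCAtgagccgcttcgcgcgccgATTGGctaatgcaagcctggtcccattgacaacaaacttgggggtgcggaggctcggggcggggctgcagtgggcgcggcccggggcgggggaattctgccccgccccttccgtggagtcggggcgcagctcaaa
Hmgcs1 (chr13:119690101-119690350, plus strand): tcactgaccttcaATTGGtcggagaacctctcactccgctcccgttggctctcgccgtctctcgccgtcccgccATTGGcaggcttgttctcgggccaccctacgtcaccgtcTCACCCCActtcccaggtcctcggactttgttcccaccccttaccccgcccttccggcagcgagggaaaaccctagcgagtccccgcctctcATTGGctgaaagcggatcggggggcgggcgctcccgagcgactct
Mvd (chr8:122443423-122443672, minus strand): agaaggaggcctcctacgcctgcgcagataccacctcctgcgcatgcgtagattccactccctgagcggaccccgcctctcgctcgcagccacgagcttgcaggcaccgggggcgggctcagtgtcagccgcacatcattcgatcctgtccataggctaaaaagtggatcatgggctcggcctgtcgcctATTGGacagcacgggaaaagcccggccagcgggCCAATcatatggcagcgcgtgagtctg
Lss (chr10:76531355-76531604, plus strand): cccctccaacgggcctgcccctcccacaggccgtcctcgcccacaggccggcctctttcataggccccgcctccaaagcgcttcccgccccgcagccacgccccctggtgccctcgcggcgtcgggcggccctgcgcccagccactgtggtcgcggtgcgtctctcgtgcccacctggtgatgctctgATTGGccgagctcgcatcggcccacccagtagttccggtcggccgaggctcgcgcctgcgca
The NF-Y box was in 4 of 4 windows, against 33.8% of the 32851 RefSeq promoters of the same length. Hmgcs1 held 3 of them and Mvd 2, while Srebf2 and Lss held 1 each. The Sp1 GC box, GGGCGG on either strand, was also in 4 of 4, against 32.7% of promoters. Among 13 other genes of the pathway with a promoter given, 12 held the NF-Y box, 12 the GC box, 4 the CACCC box described next and 3 the E-box, while 0 held either form of the sterol element. The CACCC box, CCACCC on either strand and a sequence bound by Kruppel-like factors, was in Hmgcs1 and Lss, against 28.1% of promoters. The full-length sterol response element and the E-box CACGTG, searched on both strands, were in 0 of 4 windows, against 0.192% and 6.02% of promoters. The shorter letters TCACCCCA, chosen after these windows were read, were in Hmgcs1 and Srebf2, against 1.34% of promoters. No 2 matches overlapped in these 4 windows, and a match is a description of letters and not of binding.

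In depth, the libraries held 30132499 to 42782318 counts in Li-KO and 35454662 to 42433775 in Ctl. Levels are in CPM, counts scaled to the effective size of each library. As a check of the labels, Klf15 was at 54.3, 41.6 and 51.8 CPM in Li-KO replicates 0, 1 and 2, and at 345, 174 and 196 CPM in Ctl replicates 0, 1 and 2, with a log2 fold change of -2.28 ± 0.26 (SE, adjusted p = 0.00275). Across 16533 genes tested, 12.0% were called changed at an adjusted p under 0.05, 6.11% higher and 5.90% lower in Li-KO, and the median log2 fold change was -0.01. Of the hepatocyte markers 3 of 10 were skipped by the authors' software, and the summed level of the other 7 was 14279 to 18390 CPM in Li-KO and 11055 to 18338 CPM in Ctl. Of those 7, 1 was called lower in Li-KO, Tdo2, and 0 were called higher. The log2 fold change was above 0 in 5 of the 7 and below 0 in 2, with a median of 0.24. Among the 5 above 0 were G6pc at 0.76 (adjusted p = 0.24) and Ttr at 0.56 (0.11, without overlap). Kupffer cell markers summed to 235 to 354 CPM in Li-KO and 267 to 383 CPM in Ctl, with 0 of 8 called, and endothelial markers to 375 to 622 CPM in Li-KO and 509 to 573 CPM in Ctl, with 0 of 7 called. Stellate cell and fibroblast markers summed to 574 to 722 CPM in Li-KO and 632 to 696 CPM in Ctl, with 1 of 8, Rgs5, lower. Of the 8, 4 had a log2 fold change above 0, with Col3a1 at 1.25 (adjusted p = 0.137) and Col1a1 at 1.06 (0.223), both highest in Li-KO replicate 0. Cholangiocyte markers summed to 48.0 to 152 CPM in Li-KO and 33.5 to 63.8 CPM in Ctl, where 1 of 6, Sox9, was lower. The other 5 had a log2 fold change above 0 and did not pass, with Spp1 at 1.36 (adjusted p = 0.092, highest in Li-KO replicate 0) and Epcam at 0.96 (0.085, without overlap). Erythroid markers summed to 271 to 529 CPM in Li-KO and 671 to 727 CPM in Ctl, without overlap and with 0 of 5 called. Lymphocyte markers summed to 0.851 to 4.71 CPM in Li-KO and 1.64 to 1.94 CPM in Ctl, and neutrophil markers to at most 2.93 CPM in Li-KO and 4.30 CPM in Ctl. Of these, 4 and 2 passed the filter and 0 were called. Of 5 adrenal cortex markers, 2 passed the filter and 0 were called. In such bulk tissue, a change in the number of cells of a type and a change in RNA per cell cannot be told apart, and the part of erythroid or bile duct RNA in the results below was not tested.

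Of the 7 genes, 2 passed the test and 5 did not. Hmgcs1 and Fdps rose in Li-KO liver by 1.85-fold and 1.72-fold, Sqle, Lss and Mvd were 1.51, 1.37 and 1.63 times the Ctl mean without passing the test, and Srebf2 and Fdft1 were at 0.944 and 0.947 times the Ctl mean. By count, 2 of 7 rose and 0 fell, against 6.11% and 5.90% of all genes, and 4 of 7 had an unadjusted p under 0.05, against 29.4% of all genes. The median log2 fold change of the 7 was 0.60, against -0.01 over all genes. The ranges of Li-KO and Ctl were separate for 4 of the 7, all higher in Li-KO (Hmgcs1, Fdps, Sqle and Lss). Among all genes 35.2% had separate ranges, 17.4% with Li-KO higher. The members and lists were chosen with earlier results of these data known, so these shares and medians are a description and not a test. P-values are from the quasi-likelihood test of edgeR with Benjamini-Hochberg adjustment over all genes tested, unless another test is named.

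**Figure D1:**
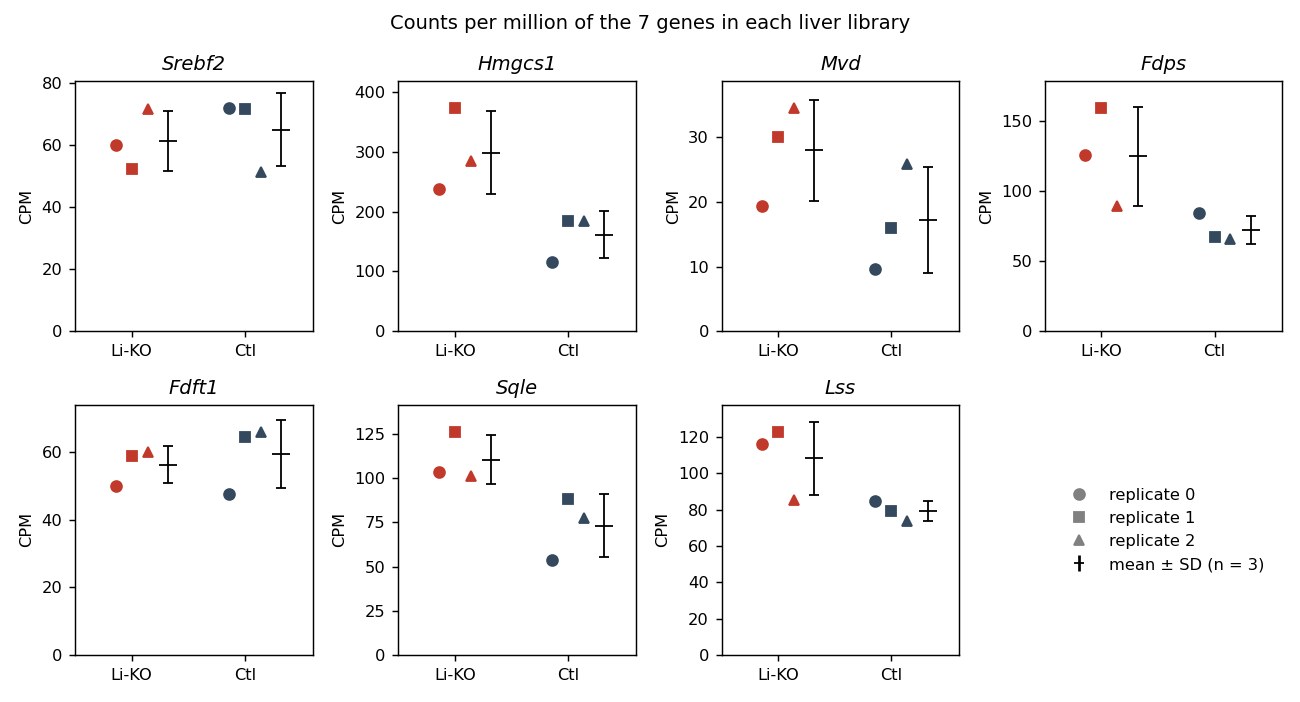
Level of each of the 7 genes in CPM (y axis, from 0) in Li-KO and Ctl livers, with 1 symbol per library and the mean ± SD of 3 libraries beside them. Hmgcs1, Fdps, Sqle and Lss have all 3 Li-KO libraries above all 3 Ctl libraries, while Srebf2, Fdft1 and Mvd overlap.

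Srebf2 (ENSMUSG00000022463.7, chromosome 15, 82147181 to 82205379, plus strand, mm10) encodes the sterol-regulated transcription factor. Its level was 60.2, 52.3 and 71.7 CPM in Li-KO replicates 0, 1 and 2, and 72.0, 71.6 and 51.5 CPM in Ctl replicates 0, 1 and 2. The groups overlapped over nearly their whole range, and the lowest value of all was a Ctl library. The means were 61.4 ± 9.75 CPM in Li-KO and 65.0 ± 11.7 CPM in Ctl (SD, n = 3 each). The log2 fold change was -0.08 ± 0.17 (SE) with a 95% interval of -0.48 to 0.31 and an adjusted p of 0.791. A change within this interval, in either direction, is not excluded with 3 libraries per group. Its sign turned to 0.01 without Ctl replicate 1 and to 0.02 without Li-KO replicate 1. The microRNA gene Mir33, which lies in an intron of Srebf2, was listed with 0 counts in all 6 libraries of this table. The mature microRNA was not measured separately, so these counts do not show whether it was present.

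Hmgcs1 (ENSMUSG00000093930.1, chromosome 13, 119690379 to 119708260, plus strand) encodes the cytosolic HMG-CoA synthase and had the largest fold change of the 7. It was at 238, 374 and 286 CPM in Li-KO replicates 0, 1 and 2, and at 116, 184 and 184 CPM in Ctl replicates 0, 1 and 2. The lowest Li-KO library was above the highest Ctl library, and Ctl replicate 0 was the lowest of all. The means were 299 ± 69.1 CPM in Li-KO and 161 ± 39.3 CPM in Ctl, a log2 fold change of 0.89 ± 0.22 with an interval of 0.38 to 1.40 and an adjusted p of 0.0386. The call held in 2 of 6 fits that left out a library, those without Li-KO replicate 0 (log2 fold change 1.05, adjusted p = 0.0326) and without Li-KO replicate 2 (0.92, 0.0496). It ended without Ctl replicate 0 (log2 fold change 0.70, adjusted p = 0.0758), without Ctl replicate 1 (1.02, 0.0917), without Ctl replicate 2 (0.99, 0.0872) or when Li-KO replicate 1 was left out (0.70, 0.134). The direction held in all 6 of these fits, which have fewer libraries. Its promoter is the one above with 3 NF-Y boxes, 2 CACCC boxes and the letters TCACCCCA. Exons of Hmgcs1 share 557 bases with an antisense gene, Gm48342, which was not analysed here.

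Mvd (ENSMUSG00000006517.4, chromosome 8, 122433601 to 122443422, minus strand) encodes mevalonate diphosphate decarboxylase. Of the 7 it had the largest SD relative to its mean in Ctl, and Fdps had it in Li-KO. Its level was 19.4, 30.1 and 34.6 CPM in Li-KO replicates 0, 1 and 2, and 9.66, 16.0 and 25.9 CPM in Ctl replicates 0, 1 and 2. Ctl replicate 2 was above Li-KO replicate 0, so the groups overlapped, and in each group replicate 0 was the lowest and replicate 2 the highest. The SD of Mvd was 27.9% of its mean in Li-KO and 47.7% in Ctl, and the log2 fold change of 0.71 ± 0.34 did not pass (interval -0.08 to 1.49, adjusted p = 0.213).

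Fdps (ENSMUSG00000059743.12, chromosome 3, 89093588 to 89101959, minus strand) encodes farnesyl diphosphate synthase, which feeds sterols and also the isoprenoids used for prenylation, dolichol and ubiquinone. It was at 125, 159 and 88.8 CPM in Li-KO replicates 0, 1 and 2, and at 83.9, 67.3 and 66.0 CPM in Ctl replicates 0, 1 and 2. The groups did not overlap, but Li-KO replicate 2 was close to Ctl replicate 0. The means were 124 ± 35.1 CPM in Li-KO and 72.4 ± 10.00 CPM in Ctl, a log2 fold change of 0.78 ± 0.21 with an interval of 0.31 to 1.26 and an adjusted p of 0.045. The call ended without any 1 of the other 5 libraries but held without Li-KO replicate 2, where the log2 fold change was 0.97 and the adjusted p 0.0125. It was 0.90 without Ctl replicate 0 (adjusted p = 0.0576), 0.75 without Ctl replicate 1 (0.156), 0.72 without Ctl replicate 2 (0.144), 0.80 without Li-KO replicate 0 (0.0808) and 0.56 without Li-KO replicate 1 (0.147). An annotated gene on the same strand, Gm43738, shares 1124 exonic bases with Fdps and was listed at 0 counts in all 6 libraries.

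Fdft1 (ENSMUSG00000021273.9, chromosome 14, 63145150 to 63179578, minus strand) encodes squalene synthase, the first enzyme that commits farnesyl units to sterols. Its level was 50.0, 58.9 and 60.2 CPM in Li-KO replicates 0, 1 and 2, and 47.8, 64.6 and 66.2 CPM in Ctl replicates 0, 1 and 2. Replicate 0 was the lowest in each group, and the groups overlapped throughout. The log2 fold change was -0.08 ± 0.15 (interval -0.43 to 0.27, adjusted p = 0.78), and its sign turned when Ctl replicate 1, Ctl replicate 2 or Li-KO replicate 0 was left out. Exons of Fdft1 share 774 bases with Ctsb, a lysosomal protease gene on the opposite strand with 23217 to 33505 counts in Li-KO and 19991 to 30221 in Ctl. Since no source used here gives the strand setting of the counting, reads of the pair could be mixed and the value of Fdft1 is uncertain.

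Sqle (ENSMUSG00000022351.14, chromosome 15, 59315077 to 59331192, plus strand) encodes squalene epoxidase, a rate-limiting enzyme of the sterol branch. It was at 103, 126 and 101 CPM in Li-KO replicates 0, 1 and 2, and at 53.6, 88.3 and 77.4 CPM in Ctl replicates 0, 1 and 2. The groups did not overlap, with Ctl replicate 0 again the lowest. The log2 fold change of 0.59 ± 0.19 (interval 0.16 to 1.03) missed the threshold with an adjusted p of 0.0754.

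Lss (ENSMUSG00000033105.12, chromosome 10, 76531588 to 76557138, plus strand) encodes lanosterol synthase. Its level was 116, 123 and 85.5 CPM in Li-KO replicates 0, 1 and 2, and 84.4, 79.1 and 73.7 CPM in Ctl replicates 0, 1 and 2. The groups were separated by a narrow gap, since Li-KO replicate 2 lay close to Ctl replicate 0. The log2 fold change of 0.45 ± 0.15 (interval 0.10 to 0.80) had an adjusted p of 0.0887. It passed in 1 of 6 fits that left out a library, the one without Li-KO replicate 2 (log2 fold change 0.59, adjusted p = 0.02). In the other such fits the adjusted p reached 0.275, and 0 of 10 alternatives that kept all libraries called Lss. The antisense gene 4930483K19Rik, which shares 381 exonic bases with Lss, had 0 to 3 counts in any library.

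Library profiles differed among the members. Ctl replicate 0 was the lowest of the 6 libraries for Hmgcs1, Sqle and Mvd, at -0.89, -0.73 and -1.10 on the scale of log2 CPM minus the mean of the gene over the 6 libraries. Fdft1 was also lowest there, at -0.27. Fdps and Lss did not show this, at -0.15 and -0.12 in Ctl replicate 0. These 2 genes were instead set apart by Li-KO replicate 2, at -0.07 for Fdps and -0.10 for Lss, where Li-KO replicates 0 and 1 were at 0.33 to 0.77. In that library Hmgcs1 was at 0.41, Sqle at 0.19 and Mvd at 0.73. The grouping was chosen after the values were seen and carries no test.

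**Figure D2:**
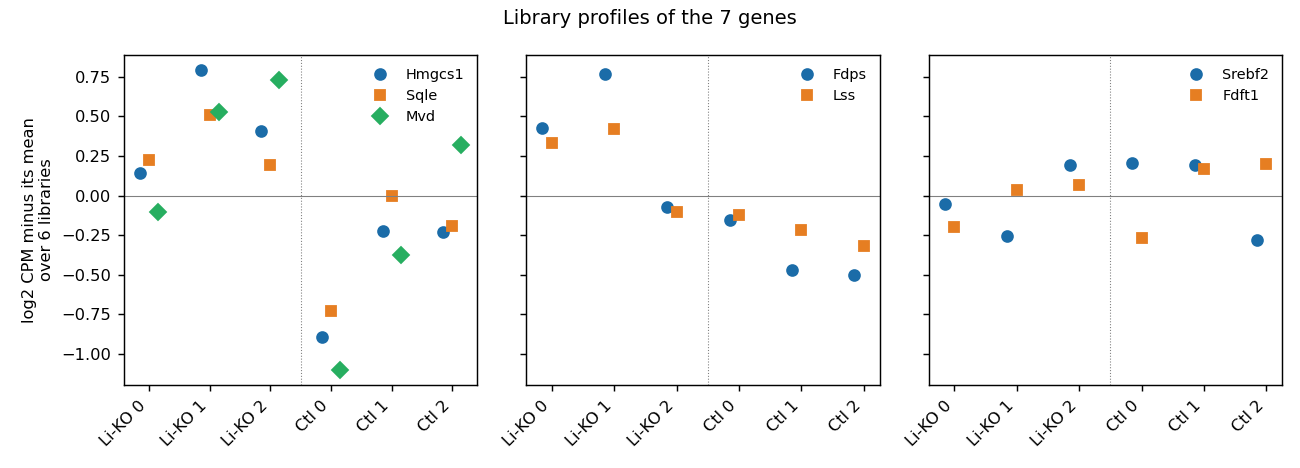
Each symbol is 1 gene in 1 library (x axis), as log2 CPM minus the mean of that gene over the 6 libraries (y axis). Hmgcs1, Sqle and Mvd are lowest in Ctl replicate 0, Fdps and Lss are near 0 in Li-KO replicate 2, and Srebf2 and Fdft1 mix between the groups.

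Whether the enzymes moved apart from Srebf2 was tested on the log2 ratio of each enzyme to Srebf2 within a library, by a two-sided exact permutation test over the 20 splits of 6 libraries, which cannot give a p below 0.1. For Hmgcs1 the log2 ratio was 1.98, 2.84 and 1.99 in Li-KO and 0.69, 1.36 and 1.83 in Ctl, without overlap, a difference of 0.98 with that smallest p of 0.1. The differences were 0.83 for Fdps, 0.70 for Sqle and 0.51 for Lss (p = 0.2 each in the exact permutation test), 0.85 for Mvd (p = 0.3) and 0.01 for Fdft1 (p = 1). After Benjamini-Hochberg adjustment over the 6 ratios, the exact permutation p-values were 0.3 to 1. With this number of libraries the test could not pass a threshold of 0.05, so the differences are given as values only.

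Levels can be set between genes only per length, and FPKM, fragments scaled to length and depth, is used for that. In Li-KO liver the order was Fdps (75.5 ± 20.7 FPKM), Hmgcs1 (70.2 ± 17.4), Sqle (30.2 ± 4.38), Lss (17.5 ± 2.94), Fdft1 (14.4 ± 1.58), Mvd (12.8 ± 4.19) and Srebf2 (9.83 ± 2.13). The ranges of neighbours overlapped except between Hmgcs1 and Sqle and between Sqle and Lss. In Ctl liver the order was Fdps (45.1 ± 6.34 FPKM), Hmgcs1 (39.4 ± 10.5), Sqle (19.9 ± 4.82), Fdft1 (15.7 ± 2.92), Lss (13.7 ± 0.565), Srebf2 (11.1 ± 1.81) and Mvd (7.77 ± 3.66). Here the ranges parted only between Hmgcs1 and Sqle and between Lss and Srebf2. The order rests on the transcript lengths used by the authors' software. In CPM per kilobase of all annotated exons Fdps averaged 29.6 in Li-KO and 17.2 in Ctl, below Hmgcs1, which averaged 65.1 in Li-KO and 35.1 in Ctl. On that scale Lss averaged 10.02 in Li-KO, below Mvd at 15.1 and Fdft1 at 13.3, and 7.33 in Ctl, the lowest of the 7, and in Ctl Fdft1 (14.1) was above Sqle (13.2).

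Of 15 other enzymes of cholesterol synthesis tested, 1 rose and 0 fell, where 6.11% and 5.90% of all genes did. Of the 15, 11 had a log2 fold change above 0 where 49.2% of all genes did, and 6 had all Li-KO libraries above all Ctl libraries, where 17.4% of all genes did. Their median log2 fold change was 0.37, against -0.01 over all genes. This list too was chosen with earlier results of these data known, so its shares carry no test. The 13 described next did not pass. In the early steps, Acat2, a thiolase that makes acetoacetyl-CoA, had a log2 fold change of 0.53 ± 0.16 (adjusted p = 0.064) and the kinase Pmvk one of 0.63 ± 0.18 (0.0589). The kinase Mvk was at 0.17 ± 0.22 (0.647) and the isomerase Idi1 at -0.23 ± 0.33 (0.693). In the later steps the log2 fold change was 0.64 for Dhcr7, 0.57 for Nsdhl, 0.47 for Lbr, 0.37 for Msmo1 and 0.26 for Cyp51, with adjusted p of 0.0762 to 0.439. Sc5d at 0.04, Ebp at -0.05, Hsd17b7 at -0.24 and Tm7sf2 at -0.33 were near or below 0, with adjusted p of 0.237 to 0.881. Tm7sf2 and Lbr both encode sterol C14 reductases, and their log2 fold changes had opposite signs.

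**Figure D3:**
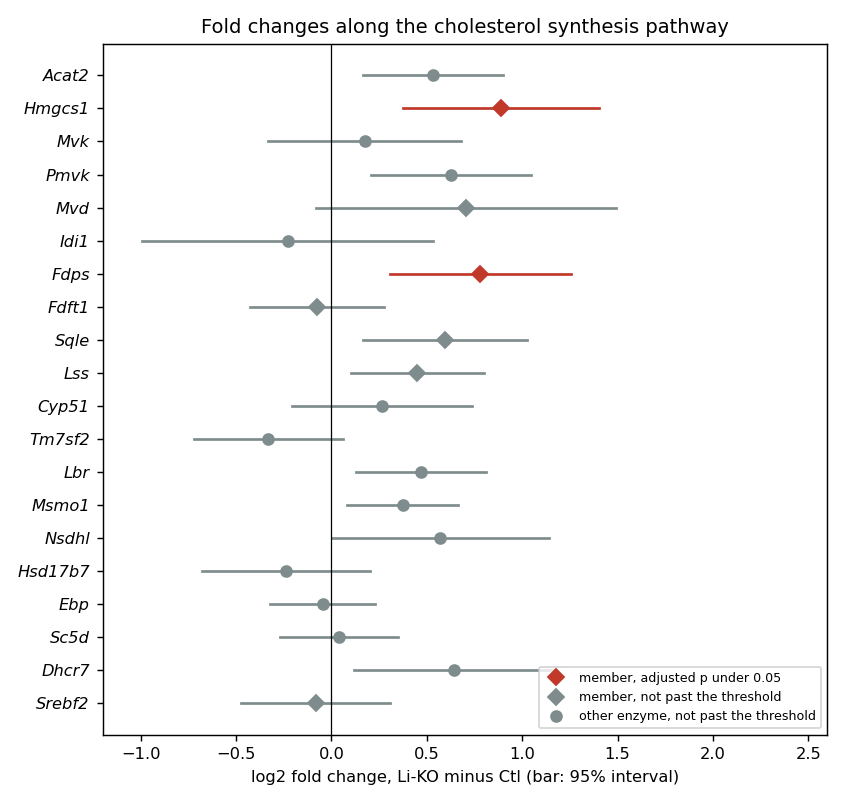
Log2 fold change, Li-KO minus Ctl (x axis), of the 7 members (diamonds) and 13 other enzymes (circles), in pathway order from top to bottom with Srebf2 last, where bars are 95% intervals that are not adjusted for the number of genes. Hmgcs1 at 0.89 and Fdps at 0.78 passed the test (red), and the other genes drawn did not.

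Of 15 genes that process or sense the precursor or act with it, 1 rose and 1 fell, a share near the 12.0% called among all genes, and their median log2 fold change was -0.09. Nfyc, a subunit of NF-Y, rose with 11.3 ± 0.818 CPM in Li-KO and 7.18 ± 0.799 CPM in Ctl (log2 fold change 0.66 ± 0.17, adjusted p = 0.0389). The genes of the other NF-Y subunits, Nfya at -0.18 and Nfyb at -0.32, had the opposite sign and did not pass (adjusted p = 0.509 and 0.232). Sp1, the GC box factor, fell with 72.2, 67.2 and 90.3 CPM in Li-KO and 112, 124 and 124 CPM in Ctl replicates 0, 1 and 2 (log2 fold change -0.65 ± 0.14, adjusted p = 0.0238). The sterol sensor Scap at -0.03, the retention factors Insig1 at 0.14 and Insig2 at -0.09, and the proteases Mbtps1 at 0.13 and Mbtps2 at -0.28, named for their roles, had adjusted p of 0.284 to 0.895. Of 9 tested targets of SREBP2 outside synthesis, 1 rose and 1 fell, against 12.0% of all genes called, and their median was 0.25. Acss2, cytosolic acetyl-CoA synthetase, rose with 264 ± 45.8 CPM in Li-KO and 171 ± 26.9 CPM in Ctl (log2 fold change 0.63 ± 0.17, adjusted p = 0.0484). The calls of Nfyc, Sp1 and Acss2 each ended without Ctl replicate 1 or without Li-KO replicate 1, among other fits that left out a library. The adjusted p reached 0.138 for Nfyc, 0.101 for Sp1 and 0.17 for Acss2, and the call of Acss2 also ended with upper quartile scaling (0.0526) and with limma on log2(FPKM + 0.1) (0.0613).

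Among genes of cholesterol storage and export, Soat2 rose. Soat2, which esterifies cholesterol in hepatocytes, was at 74.3, 76.5 and 70.0 CPM in Li-KO replicates 0, 1 and 2, and at 32.6, 31.0 and 31.2 CPM in Ctl replicates 0, 1 and 2. The groups were far apart and each was tight, with a 2.33-fold higher mean in Li-KO (log2 fold change 1.22 ± 0.11, adjusted p = 0.000965), and the call held in all 6 fits that left out a library. Of the 16 tested genes of esterification, uptake and trafficking, 1 rose and 1 fell, a share near the 12.0% called among all genes, with a median of 0.09. The one that fell, Lrp1, a lipoprotein receptor, was at 1800 ± 69.7 CPM in Li-KO and 2627 ± 80.1 CPM in Ctl (log2 fold change -0.55 ± 0.14, adjusted p = 0.0425). Its call ended without any single library (adjusted p up to 0.152). Of 9 tested genes of LXR and its targets, which respond to oxysterols, 2 rose and 0 fell, against 6.11% and 5.90% of all genes, with a median of 0.47. The log2 fold changes of the 9 ran from -0.39 to 1.37, with 8 above 0 and 1 below. Abcg5, a subunit of the sterol export pump of the canalicular membrane, was at 453, 312 and 279 CPM in Li-KO replicates 0, 1 and 2 and at 192, 85.7 and 127 CPM in Ctl replicates 0, 1 and 2 (log2 fold change 1.37 ± 0.30, adjusted p = 0.0257). Nr1h3, which encodes LXR alpha, was at 157, 137 and 127 CPM in Li-KO replicates 0, 1 and 2 and at 101.2, 102.3 and 96.6 CPM in Ctl replicates 0, 1 and 2 (log2 fold change 0.49 ± 0.12, adjusted p = 0.0338). Abcg8, the partner of Abcg5 and named for that, had a log2 fold change of 1.03 ± 0.35 without passing (adjusted p = 0.0891). The calls of Abcg5 and Nr1h3 ended without Ctl replicate 1 or 2 or Li-KO replicate 0 or 1, and that of Nr1h3 also without Ctl replicate 0. The adjusted p reached 0.0939 for Abcg5 and 0.114 for Nr1h3.

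In the branch that leaves farnesyl diphosphate for other isoprenoids, 1 of 12 rose and 0 fell, a share near the 6.11% of all genes that rose, with a median log2 fold change of 0.36. Of the 12, 7 had a log2 fold change above 0 and 5 below, and 9 had an unadjusted p under 0.05, against 29.4% of all genes. All Li-KO libraries were above all Ctl libraries in 5 and below them in 3, against 17.4% and 17.8% of all genes. Dolk, dolichol kinase, was at 24.7 ± 2.66 CPM in Li-KO and 15.2 ± 0.691 CPM in Ctl (0.70 ± 0.13, adjusted p = 0.0166), and lost its call without Ctl replicate 1 or 2 or Li-KO replicate 1 (adjusted p up to 0.0757). Fatty acid synthesis, which shares acetyl-CoA and the SREBP family with cholesterol synthesis, had 0 of 9 higher and 4 lower, against 6.11% and 5.90% of all genes, and a median of -0.55. The list did not move as 1, since 4 of the 9 had a log2 fold change above 0, up to 0.83, and 5 below 0. The difference between these lists was not tested. Me1, malic enzyme, was at 17.8, 41.8 and 20.1 CPM in Li-KO replicates 0, 1 and 2 and at 104, 183 and 110 CPM in Ctl replicates 0, 1 and 2 (log2 fold change -2.32 ± 0.36, adjusted p = 0.00831). Acaca, acetyl-CoA carboxylase, was at 91.9, 82.9 and 69.9 CPM in Li-KO and at 167, 165 and 137 CPM in Ctl replicates 0, 1 and 2, without overlap. It fell by 0.94 on the log2 scale, Fasn, fatty acid synthase, fell by 0.99 and Mlxipl, which encodes ChREBP, fell by 0.55, with adjusted p of 0.00775, 0.0476 and 0.0492. The calls of Me1 and Acaca held in all 6 fits that left out a library, while those of Fasn and Mlxipl held in 1 of 6. The call of Mlxipl also ended with RLE scaling (adjusted p = 0.0506), and that of Fasn and Mlxipl with upper quartile scaling (0.0536 and 0.0542) and with skipped genes kept at 0 (0.0501 and 0.0525).

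**Figure D4:**
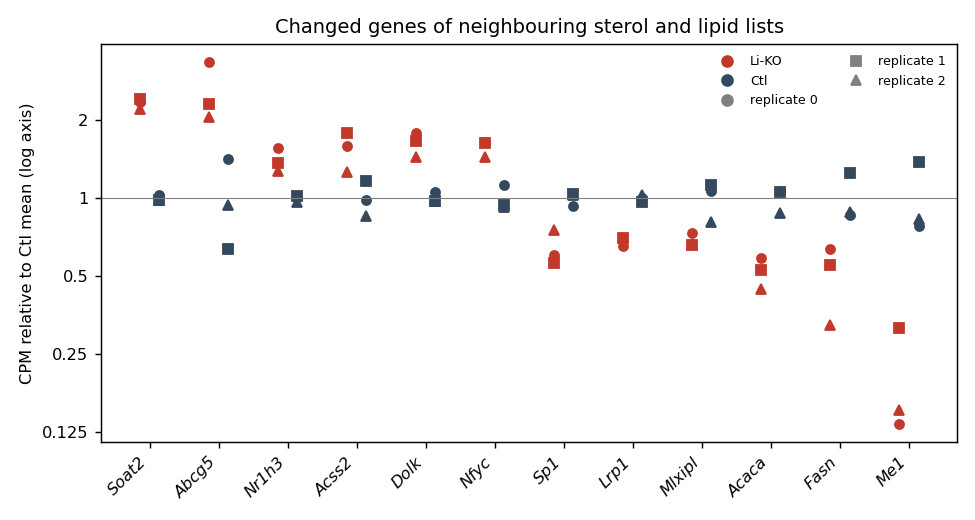
Level of 12 called genes of the neighbouring lists in each library, as CPM divided by the Ctl mean (y axis, log scale), with Li-KO left of Ctl for each gene. The 3 Soat2 values in Li-KO cluster more than 2-fold above Ctl, and Me1 is the lowest in Li-KO.

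The genes whose library pattern was most like that of the 7 members were found by Pearson's r between log2 CPM and the mean centred profile of the members over the 6 libraries, among 9755 genes. They were Gpc1, a glypican (r = 0.999), Snx9, a sorting nexin (0.993), Trim25, a ubiquitin ligase (0.992), and Scand1 and Entpd5 (0.990 each, to 3 digits). The points share the 2 groups, so r carries the group difference as well. With the group means removed, r was 0.959 to 0.998 for these 5. The mean profile is not one that all 7 members share. Between 2 of the 6 enzymes r was -0.435 to 0.981, and Srebf2 had a negative r with each enzyme (-0.284 to -0.48). Gpc1 rose with a mean of 58.3 CPM in Li-KO and 15.2 CPM in Ctl (log2 fold change 1.94 ± 0.36, adjusted p = 0.0152), and that call was lost when Ctl replicate 1 (adjusted p = 0.0513) or Li-KO replicate 1 (0.0545) was left out. Scand1 rose with 12.1 CPM in Li-KO and 6.63 CPM in Ctl (adjusted p = 0.0374, up to 0.131 when a library was left out). Snx9, Trim25 and Entpd5 did not pass, with adjusted p of 0.115, 0.0721 and 0.117. They were picked as the highest of many genes over few points, so r is a description and carries no p.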

How the data were processed

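The members and lists were chosen with earlier results of these data known. The submitters' processing notes name STAR, Cufflinks, Cuffdiff and the mm10 build. No source used here gives their versions, the annotation or the strand setting. Libraries came from a stranded total RNA kit, per the labels' protocols. The authors deposited estimated counts (raw fragments, not normalized, per the file headers), of which 3.29% were not whole (tolerance 1e-06), and FPKM, scaled to length and depth by Cuffdiff, per the file headers. Condition names KO and WT were matched to Li-KO and Ctl by title and replicate number, and 0 columns were left without a sample. Of 48432 genes, 77 that Cuffdiff skipped in some library and listed at 0 were left out. All 7 members had the status OK in all 6 libraries and passed the filter.

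Estimated counts were rounded. Genes were filtered by filterByExpr (count of 10, total of 15) in edgeR 4.0.16, scaled by TMM and tested with the quasi-likelihood test, with the group as the only term, Benjamini-Hochberg adjustment over 16533 genes and a threshold of 0.05. SE is the fold change over the root of F, and the 95% interval uses the t distribution with the degrees of freedom of the test. The test was checked on simulated data with planted fold changes larger than those of the members. Recovery of changes as small as those of the members was not checked. Alternatives were RLE and upper quartile scaling, no filter, DESeq2 1.42.0, limma 3.58.1 (voom, and log2 of FPKM plus 0.1 or 1), a replicate block, skipped genes kept at 0, each library left out, length taken from annotated exons, and a 300-base promoter window. Gene IDs were matched to symbols without version (48051 matched, 381 not), and positions and overlaps came from GENCODE M21 (mm10).

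Named were Klf15, the members, the enzymes of the pathway, up to 4 called genes of each other list, and the 5 genes most like the members with a mean of at least 5 CPM (log2 CPM with a prior count of 2), without predicted genes, small RNA genes and names in Rik. Some genes of these lists are counted but not reported here. Software was R 4.3.3 and Python 3.11.15, with numpy 2.4.6, pandas 2.3.3 and matplotlib 3.10.9.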

Additional observations from a re-analysis of the deposited data

How the results depend on the processing

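The 2 calls among the 7 genes were near the threshold. On log2(FPKM + 0.1) of tested genes, log2(FPKM + 1) and log2(FPKM + 0.1) of all genes above 0, limma called 0 of 7, with log2 fold changes of 0.85, 0.83 and 0.85 for Hmgcs1 and 0.72, 0.70 and 0.72 for Fdps (adjusted p 0.0698 to 0.144). The last of these gave 445 higher and 460 lower among all genes, and DESeq2 gave 1497 higher and 1516 lower. Sqle passed without the filter on low counts (log2 fold change 0.61) and with DESeq2 (0.60). Other cholesterol synthesis enzymes called higher were 3 without the filter and 5 with DESeq2. The other 7 alternatives among the 10 that kept all libraries called Hmgcs1 and Fdps.

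Deviations of equal-numbered libraries were only weakly correlated (r = 0.018, 0.081 and 0.067 between Li-KO and Ctl libraries of the numbers 0, 1 and 2), while Li-KO replicates 1 and 2 were closest to the Ctl library of equal number and Li-KO replicate 0 to Ctl replicate 1. With a replicate block, 4 of 7 members were called higher, Mvd (log2 fold change 0.77) and Sqle (0.62) in addition, and 3 other enzymes. All genes gave 956 higher and 1015 lower with the block, and Nfyc lost its call (adjusted p = 0.0539).

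When 1 library was left out, 0 to 3 members were called higher, 1 to 4 other enzymes, 198 to 1102 genes higher and 234 to 1447 lower. The log2 fold change was 0.70 to 1.05 for Hmgcs1, 0.56 to 0.97 for Fdps, 0.35 to 0.59 for Lss, 0.42 to 1.13 for Mvd, 0.41 to 0.77 for Sqle, -0.23 to 0.019 for Srebf2, -0.22 to 0.021 for Fdft1, -0.52 to 0.028 for Idi1, -0.09 to 0.031 for Ebp and -0.067 to 0.10 for Sc5d. Per kilobase of annotated exons, CPM levels moved to 9.05 for Srebf2 in Ctl, 29.6 and 17.2 for Fdps in Li-KO and Ctl, 19.9 and 13.2 for Sqle and 10.0 and 7.33 for Lss. The 300-base promoter window changed no motif count of the members. The cause of these shifts was not tested, except that fits without a library have fewer samples.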

Other observations

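Some genes of the sterol lists differed more between libraries of 1 group than between groups. They were chosen after their values were seen. Aacs, which makes acetoacetyl-CoA from ketone bodies in the cytosol, was at 113, 501 and 113 CPM in Li-KO replicates 0, 1 and 2 and at 112, 278 and 125 CPM in Ctl replicates 0, 1 and 2, so replicate 1 was the highest in each group (adjusted p = 0.626). Srebf1, which encodes the SREBP of fatty acid synthesis, was at 1380, 856 and 410 CPM in Li-KO and at 709, 757 and 754 CPM in Ctl, a wide spread around a tight one (adjusted p = 0.683). Lpin1, a phosphatidate phosphatase and coregulator, was at 234, 412 and 520 CPM in Li-KO and at 1142, 287 and 253 CPM in Ctl, so it was highest in Ctl replicate 0, the library in which Hmgcs1, Sqle and Mvd were lowest and Klf15 highest. Cyp7b1, an oxysterol hydroxylase, was at 400, 243 and 58.1 CPM in Li-KO and at 320, 579 and 928 CPM in Ctl (adjusted p = 0.176). What sets these libraries apart was not tested.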
